A study of Mus musculus with 10 samples.

Results

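The 30 genes described here encode the machinery of excitation-contraction coupling and calcium handling in the cardiac muscle cell. They were chosen by symbol, and each symbol was matched to 1 Ensembl identifier of the deposited table through the GENCODE M21 annotation. The table lists 51789 genes, and the 30 are a hand-made list that no cutoff on their measured values defined. Earlier results of these data were known when the list was made. RNA was sequenced from cardiomyocytes that were isolated 4 days post-MI (myocardial infarction) from TgGRK5 mice, which overexpress the G protein-coupled receptor kinase GRK5 in cardiomyocytes alone, and from their non-transgenic littermates (NLC). All mice of both groups had an infarct, so that the comparison of 5 TgGRK5-MI libraries with 5 NLC-MI libraries shows the transgene on the background of MI and holds no sham-operated heart. The study used adult mice of both sexes for its experiments on these lines. The labels of the libraries give neither the age nor the sex of single mice. In every library, RNA of Y-linked genes was far above that of Xist, the pattern of male mice. The TgGRK5 mice were from an existing line, and the promoter that drives its transgene is not given in the sources used here.

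In each heartbeat, the action potential opens L-type calcium channels of the cell membrane, and the calcium that enters opens ryanodine receptors of the facing sarcoplasmic reticulum, which release the larger part of the calcium that starts contraction. The heart relaxes when the pump SERCA2a returns calcium to the reticulum under the brake of phospholamban, while the sodium-calcium exchanger carries the rest out of the cell. Lower pump activity and leaky release channels are well-known features of failing heart muscle.

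Libraries held 7968779 to 23381527 counts, and a gene with 3 counts lay between 0.121 and 0.393 CPM (counts scaled to the size of the library, here with the TMM factors of edgeR). Grk5 was at 60.4 ± 9.50 CPM for NLC-MI and 1222 ± 472 CPM for TgGRK5-MI (SD, n = 5 each), so that the libraries carried the genotype of their labels. The cardiomyocyte label was borne out by all 11 cardiomyocyte markers, whose summed level was 57998 to 146898 CPM in NLC-MI and 63756 to 125112 CPM in TgGRK5-MI. RNA of other cells was present too, and the 8 fibroblast markers summed to 4031 to 24098 CPM in NLC-MI and 4198 to 24766 CPM in TgGRK5-MI. The 8 macrophage and monocyte markers summed to 546 to 1791 CPM and 945 to 1996 CPM, and the 7 endothelial markers to 768 to 1392 CPM and 716 to 1481 CPM, in the same order of groups. Neutrophil markers reached at most 30.4 CPM in any library, with Ly6g at 0 or 1 count, and lymphocyte markers at most 3.23 CPM. Smooth muscle and pericyte markers summed to 764 to 1734 CPM and 1102 to 1965 CPM, and atrial markers to 1226 to 3810 CPM and 997 to 3504 CPM. Erythrocyte markers were at 9.49 to 412 CPM and 13.3 to 51.7 CPM. The atrial gene Myl7 was lower at an unadjusted p of 0.0406, and no other marker stood under 0.05. None of these lists had a gene with an adjusted p under 0.10. In RNA from pooled cells, fewer cells of a type and less RNA per cell cannot be told apart.

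All 30 genes passed the filter on low counts and were tested among 15232 genes with edgeR's quasi-likelihood test. No gene of the 30 passed an adjusted p of 0.10 (Benjamini-Hochberg over all genes tested), a threshold that 12 genes or 0.0788% of all genes tested passed, and the lowest adjusted p of the 30 was 0.968. At an unadjusted p under 0.05, Ryr2 and Cacna1c were lower in TgGRK5-MI (2 of 30, against 2.08% of all genes) and S100a1 was higher (1 of 30, against 1.77% of all genes). DESeq2 and limma-voom also called 0 of the 30. In both directions, 3 of 30 genes stood below that unadjusted limit where 3.85% of all genes did. The groups overlapped for every one of the 30, while 1.00% of all genes had groups that did not overlap (0.584% with TgGRK5-MI higher and 0.420% with TgGRK5-MI lower). Fold changes were below 0 on the log2 scale for 17 genes and above 0 for 13, and 49.8% of all genes were below 0. The median log2 fold change was -0.09 for the 30 genes and 0.0013 for all genes, and single values ranged from -0.93 to 0.85. The standard error (SE) of the log2 fold change had a median of 0.26 over the 30 genes. Variation within a group was wide, with a median coefficient of variation of 34.3% for NLC-MI and 25.2% for TgGRK5-MI, against 27.8% and 24.7% over all genes.

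**Figure D1:**
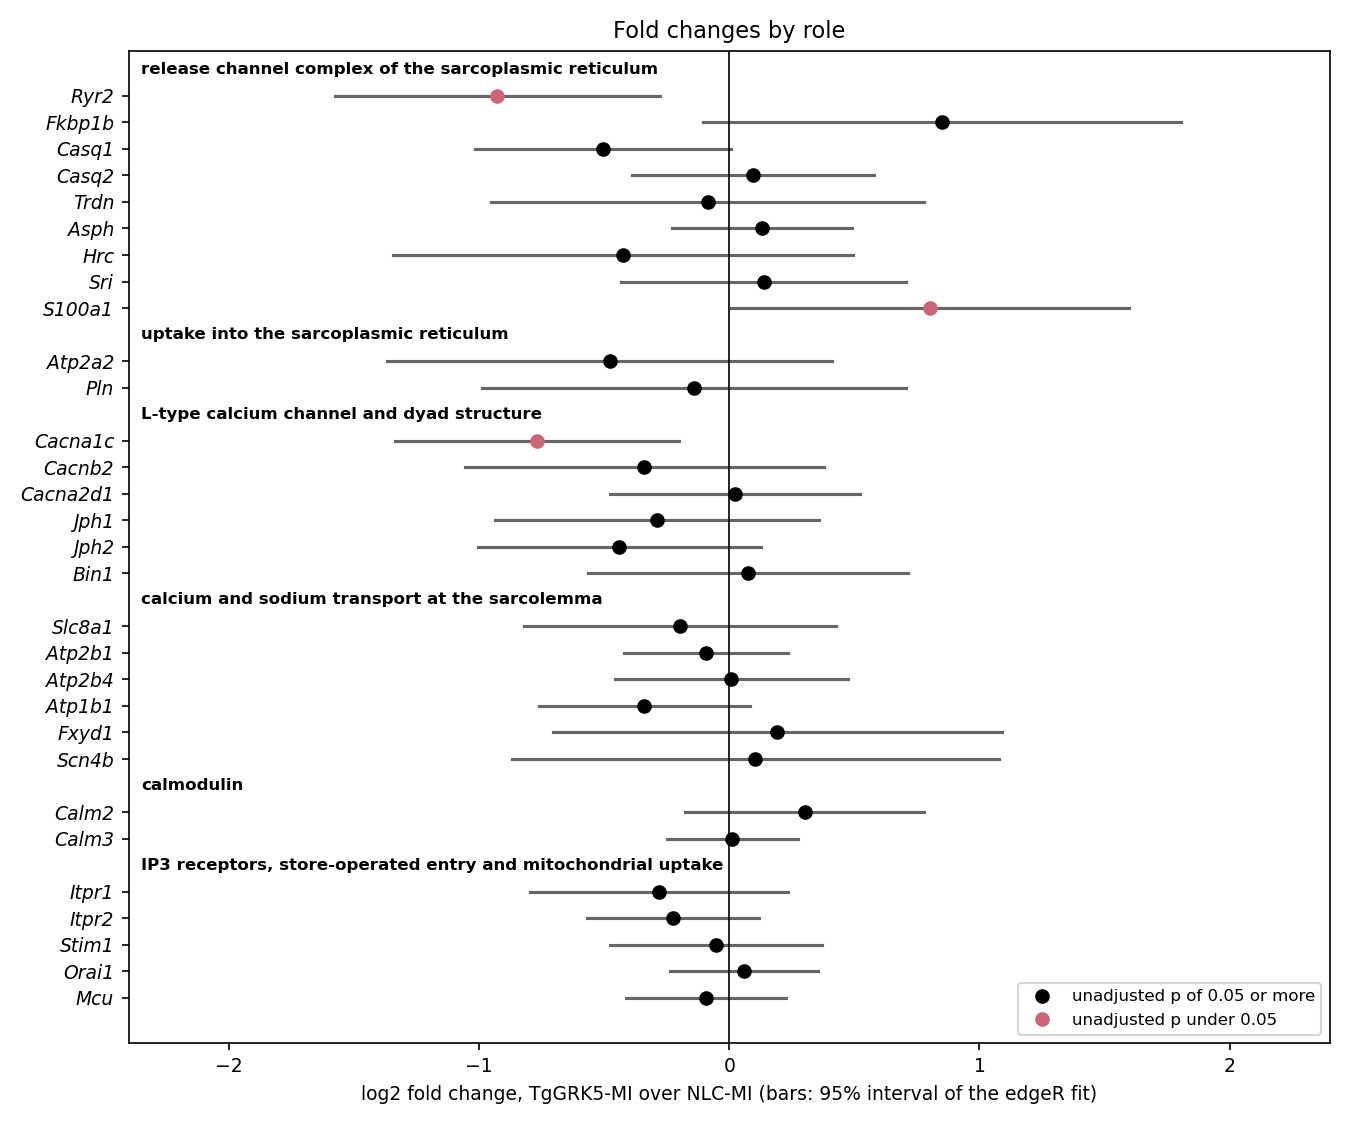
The plot gives the log2 fold change of each of the 30 genes, TgGRK5-MI over NLC-MI, on the horizontal axis, with bars for the 95% interval of the edgeR fit and genes grouped by role. Points with an unadjusted p under 0.05 are red (Ryr2 at -0.93, Cacna1c at -0.77 and S100a1 at 0.80), and none of the 30 passed the adjusted threshold.

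Levels can be compared between genes only per length, and they are given here as CPM per kb of merged exons. In NLC-MI, Pln was at 1641 ± 802, Atp2a2 at 1566 ± 718 and S100a1 at 754 ± 319 CPM per kb (SD, n = 5). Hrc (386 ± 261) and Casq2 (386 ± 78.3), which bind calcium in the lumen of the reticulum, followed. The release channel gene Ryr2 was at 51.7 ± 18.7 and the L-type channel gene Cacna1c at 9.93 ± 3.50 CPM per kb. Lowest of all were Itpr2 (2.18 ± 0.269), Stim1 (2.07 ± 0.429) and Fkbp1b (1.09 ± 0.753 CPM per kb). In TgGRK5-MI the levels were 1489 ± 453 for Pln, 1125 ± 275 for Atp2a2, 1313 ± 669.7 for S100a1, 27.2 ± 6.40 for Ryr2 and 5.82 ± 1.33 CPM per kb for Cacna1c. Neighbours in this order, such as Pln and Atp2a2 or Hrc and Casq2, did not differ beyond their spread. Together the 30 genes took 1.62% to 3.06% of all counts in NLC-MI libraries and 1.41% to 2.08% in TgGRK5-MI libraries, and Atp2a2 and Pln alone took 0.881% to 2.18% of a library.

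**Figure D2:**
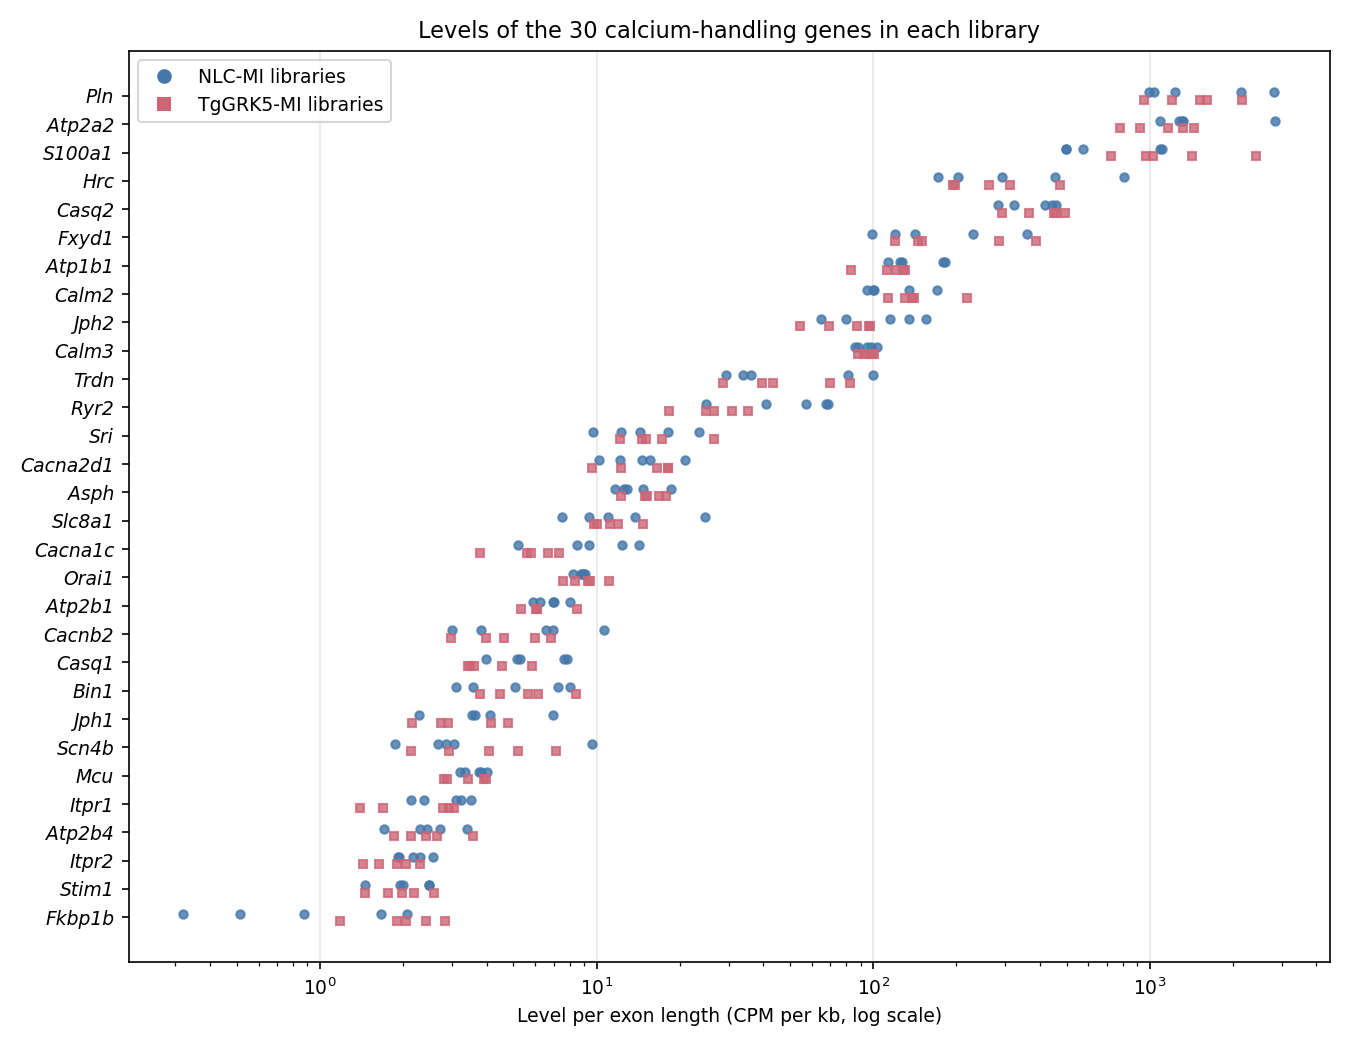
Each point is 1 library, with the level in CPM per kb of merged exons on a log axis and the genes ordered by their NLC-MI mean, from Pln at the top to Fkbp1b at the bottom. Blue circles (NLC-MI) and red squares (TgGRK5-MI) overlapped for all 30 genes.

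The release complex of the sarcoplasmic reticulum holds 9 of the genes, of which 4 had log2 fold changes below 0 and 5 above 0. Ryr2 encodes the cardiac ryanodine receptor, the channel through which the reticulum releases calcium. The gene (ENSMUSG00000021313) lies on the minus strand at chr13:11553102-12106945 of GRCm38, and its merged exons span 28790 bases. Ryr2 stood at 715, 1177, 1643, 1970.0 and 1942 CPM in NLC-MI replicates 1 to 5 and at 1016, 528, 889, 766 and 716 CPM in TgGRK5-MI replicates 1 to 5. The NLC-MI replicates 2 to 5 lay above all TgGRK5-MI libraries, and NLC-MI replicate 1 lay among them. The means were 1489 ± 538 and 783 ± 184 CPM (SD, n = 5 each). The log2 fold change was -0.93 (SE 0.30, 95% interval -1.58 to -0.28), with an unadjusted p of 0.00903 and an adjusted p of 0.968. A two-sided exact permutation test over the libraries gave p = 0.0476, where the smallest p that 5 against 5 libraries allow is 0.00794. Leaving out single libraries kept the value between -1.12 and -0.81. With limma-voom and sample weights it was -0.62 (unadjusted p 0.0421). Without the 3 libraries with the fewest counts it was -0.96 (unadjusted p 0.0470 with edgeR).

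S100a1 encodes a small calcium sensor that binds the ryanodine receptor and SERCA2a and raises calcium cycling. It lies at chr3:90511034-90514392 on the minus strand and has the shortest merged exons of the set, at 694 bases. Its values were 398, 345, 771, 344 and 758 CPM in NLC-MI replicates 1 to 5 and 673, 503, 1682, 988 and 711 CPM in TgGRK5-MI replicates 1 to 5. TgGRK5-MI replicate 3 was the highest library, and the groups overlapped between 503 and 771 CPM. The means were 523 ± 221 and 911 ± 465 CPM (SD, n = 5 each), which gave a log2 fold change of 0.80 (SE 0.36). The unadjusted p was 0.0486, and the two-sided exact permutation test gave p = 0.0873. Without TgGRK5-MI replicate 3 the log2 fold change was 0.45 (unadjusted p 0.185), and without the 3 libraries with the fewest counts it was 0.44 (unadjusted p 0.200).

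Fkbp1b encodes calstabin 2 (FKBP12.6), which binds the ryanodine receptor and stabilizes its closed state. It was the member nearest to the floor, with 4 to 66 counts per library. Its values were 2.11, 1.70, 0.523, 0.891 and 0.327 CPM for NLC-MI and 1.21, 2.88, 2.09, 1.94 and 2.47 CPM for TgGRK5-MI (replicates 1 to 5). The log2 fold change was 0.85 (SE 0.44, unadjusted p 0.0759). The low counts of NLC-MI replicates 3 and 5 coincided with the lowest fibroblast marker levels of that group. TgGRK5-MI was mixed in this. Its replicate 2 had the most fibroblast marker RNA of the group and the highest Fkbp1b value. Its replicate 3 had the least (4198 CPM) with Fkbp1b at 2.09 CPM, and replicate 1, the lowest for Fkbp1b, had 14153 CPM. With the fibroblast marker level as a covariate, chosen after seeing the data, the log2 fold change of Fkbp1b was 1.03 (unadjusted p 0.0151, adjusted p 0.586).

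Casq2 encodes the calsequestrin of the heart and Casq1 that of skeletal muscle, which buffer calcium inside the reticulum. Casq2 was at 1056 ± 214 CPM for NLC-MI and 1127 ± 223 CPM for TgGRK5-MI (SD, n = 5 each), which gave a log2 fold change of 0.094 with a 95% interval of -0.39 to 0.58. Casq1 stood at 7.75, 10.3, 15.3, 10.1 and 14.9 CPM for NLC-MI and 11.4, 8.86, 7.04, 6.79 and 6.71 CPM for TgGRK5-MI (replicates 1 to 5). Its TgGRK5-MI replicates 3, 4 and 5 were lower than every NLC-MI library, while replicates 1 and 2 were not. The log2 fold change of Casq1 was -0.50 (SE 0.23, unadjusted p 0.0528).

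Triadin (Trdn) and junctin (Asph) anchor calsequestrin to the release channel, Hrc binds calcium in the lumen, and sorcin (Sri) damps release. Trdn was at 524 ± 300.5 and 494 ± 210.0 CPM in NLC-MI and TgGRK5-MI, a log2 fold change of -0.087 that took the other sign under limma-voom. Asph, whose counts also cover the aspartate hydroxylase made from the same gene, was at 227 ± 43.9 and 248 ± 33.7 CPM with a log2 fold change of 0.13. For Hrc the means were 992 ± 671 and 738 ± 292 CPM, and its log2 fold change of -0.43 rested on NLC-MI replicate 5 (2078 CPM), without which it was 0.031. Sri was at 75.4 ± 25.9 and 82.9 ± 26.9 CPM, a log2 fold change of 0.14. These SDs are over 5 libraries each, and the unadjusted p of these 4 genes was 0.332 or higher.

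Uptake into the reticulum was represented by Atp2a2, which encodes the SERCA2 pump, and by Pln, which encodes phospholamban. Atp2a2 (chr5:122453513-122502225, minus strand) stood at 6609, 8008, 7784, 7942 and 17270.0 CPM in NLC-MI replicates 1 to 5 and at 8769, 5584, 8015, 4738 and 7092 CPM in TgGRK5-MI replicates 1 to 5. NLC-MI replicate 5 stood apart, and the other libraries of both groups lay between 4738 and 8769 CPM. The log2 fold change of Atp2a2 was -0.48 (95% interval -1.37 to 0.41, unadjusted p 0.264), and -0.16 without NLC-MI replicate 5. Pln (chr10:53337667-53345987, plus strand) stood at 2868, 2732, 5895, 3390.4 and 7756 CPM for NLC-MI and 4429, 2640.1, 5948, 4187 and 3329.8 CPM for TgGRK5-MI, so that both groups spread over the same values. Its log2 fold change was -0.14 (95% interval -0.99 to 0.71), and 0.14 without NLC-MI replicate 5.

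The L-type channel and the dyad, the site where cell membrane and reticulum face each other, were covered by 6 genes, 4 below 0 and 2 above 0. Cacna1c encodes the pore-forming subunit of the channel. The gene (ENSMUSG00000051331) lies on the minus strand at chr6:118587240-119196418 and has 21191 bases of merged exons. Cacna1c stood at 109.9, 180.3, 199, 263 and 300.3 CPM in NLC-MI replicates 1 to 5 and at 155, 80.3, 141, 122 and 118 CPM in TgGRK5-MI replicates 1 to 5. As for Ryr2, 4 NLC-MI libraries lay above all TgGRK5-MI libraries and NLC-MI replicate 1 did not. The means were 210.4 ± 74.1 and 123 ± 28.1 CPM (SD, n = 5 each). The log2 fold change was -0.77 (SE 0.26, 95% interval -1.34 to -0.20, unadjusted p 0.0122, adjusted p 1.000), and the two-sided exact permutation test gave p = 0.0476. Single libraries left out kept the log2 fold change between -0.95 and -0.61. With limma-voom and sample weights it was -0.52 (unadjusted p 0.0527).

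The accessory subunits stood nearer to 0. Cacnb2, which carries the channel to the membrane, was at 81.8 ± 39.7 CPM for NLC-MI and 64.6 ± 20.4 CPM for TgGRK5-MI, a log2 fold change of -0.34 with an unadjusted p of 0.323. Cacna2d1 was at 183 ± 50.4 and 186 ± 47.6 CPM, a log2 fold change of 0.024. Junctophilin 2 (Jph2), which ties the reticulum to the T-tubule, stood at 339, 491, 275, 573 and 659 CPM for NLC-MI and 415, 295, 409.9, 231 and 371 CPM for TgGRK5-MI. NLC-MI replicates 2, 4 and 5 were above every TgGRK5-MI library, and the log2 fold change was -0.44 (unadjusted p 0.116). Its paralog Jph1 was at 20.5 ± 8.68 and 16.8 ± 5.45 CPM, with a log2 fold change of -0.29. Bin1, which shapes T-tubules but is made in many cell types, was at 22.2 ± 8.97 and 23.4 ± 7.36 CPM, a log2 fold change of 0.075.

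**Figure D3:**
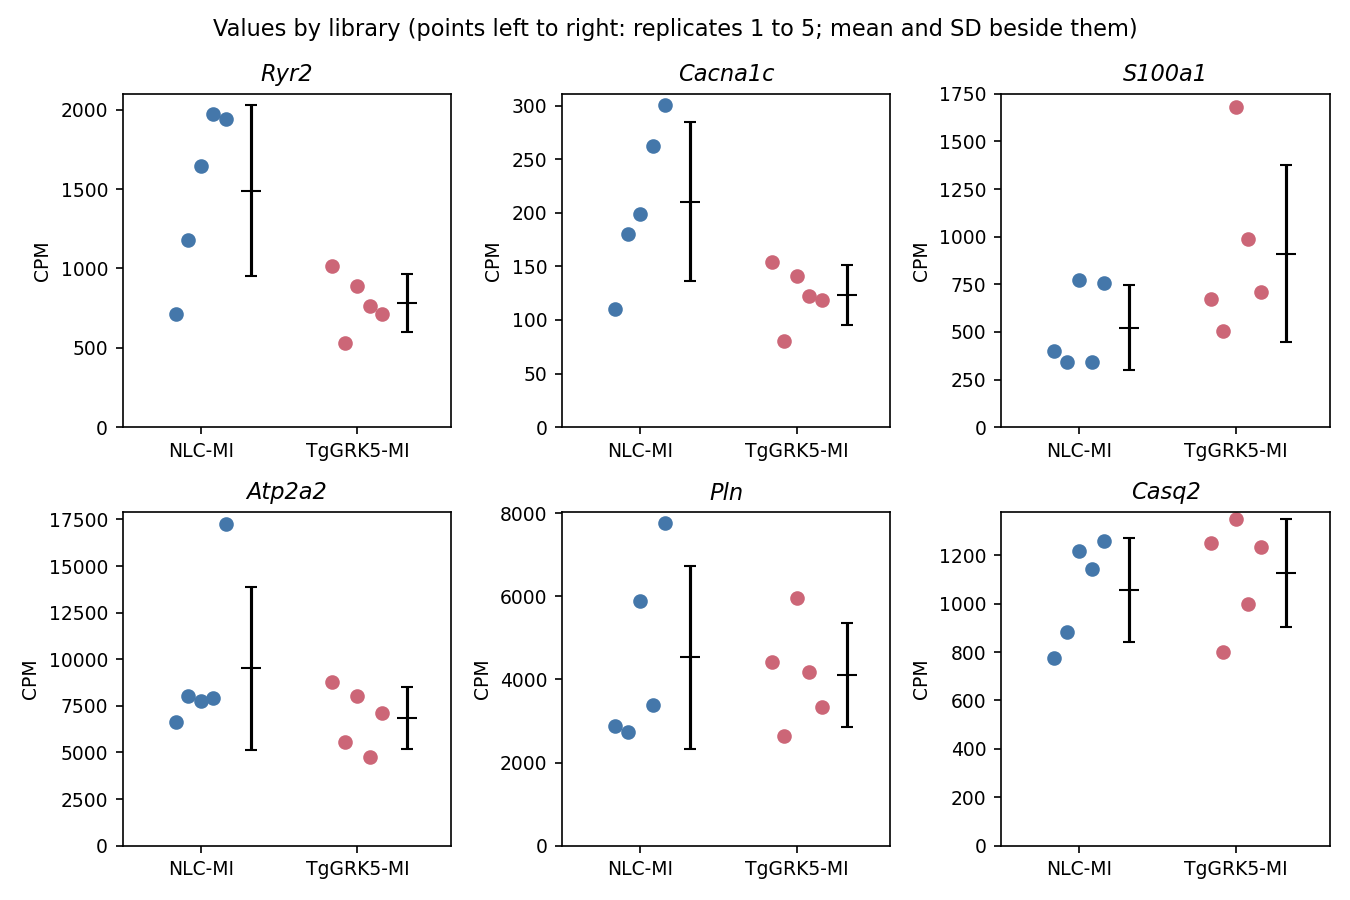
Points are the CPM of single libraries (replicates 1 to 5 from left to right in each group) for Ryr2, Cacna1c, S100a1, Atp2a2, Pln and Casq2, and the black mark beside them is the mean with its SD. Ryr2 and Cacna1c had 4 of 5 NLC-MI libraries above the TgGRK5-MI range, the Atp2a2 value of 17270.0 CPM in NLC-MI replicate 5 stood alone, and Pln and Casq2 covered like ranges in both groups.

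The DNA upstream of the genes is shown for Ryr2, Cacna1c and S100a1, the members with an unadjusted p under 0.05, and for Pln, the most abundant member per length. The windows of RefSeq (GRCm38.p6) cover 250 bases before to 50 bases after a transcript start and are written 5′ to 3′ on the strand of the gene. Capitals mark E-boxes (CANNTG), the NFAT core (TGGAAA, here read as its complement TTTCCA), and the TATA box (TATAAA). Ryr2 is at chr13:12106896-12107195 on the minus strand, Cacna1c (the most distal of its 3 windows) at chr6:119196360-119196659 on the minus strand, S100a1 at chr3:90514281-90514580 on the minus strand, and Pln at chr10:53337436-53337735 on the plus strand.
Ryr2: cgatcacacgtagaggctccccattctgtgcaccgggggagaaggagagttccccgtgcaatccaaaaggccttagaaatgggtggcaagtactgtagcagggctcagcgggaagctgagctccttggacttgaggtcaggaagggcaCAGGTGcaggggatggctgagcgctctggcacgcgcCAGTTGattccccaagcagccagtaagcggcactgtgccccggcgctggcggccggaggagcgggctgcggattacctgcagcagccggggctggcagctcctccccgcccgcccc
Cacna1c: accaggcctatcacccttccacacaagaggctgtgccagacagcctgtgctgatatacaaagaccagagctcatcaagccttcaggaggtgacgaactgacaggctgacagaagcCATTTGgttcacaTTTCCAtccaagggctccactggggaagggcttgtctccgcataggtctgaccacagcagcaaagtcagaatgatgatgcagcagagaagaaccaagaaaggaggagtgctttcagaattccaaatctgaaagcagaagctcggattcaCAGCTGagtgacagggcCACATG
S100a1: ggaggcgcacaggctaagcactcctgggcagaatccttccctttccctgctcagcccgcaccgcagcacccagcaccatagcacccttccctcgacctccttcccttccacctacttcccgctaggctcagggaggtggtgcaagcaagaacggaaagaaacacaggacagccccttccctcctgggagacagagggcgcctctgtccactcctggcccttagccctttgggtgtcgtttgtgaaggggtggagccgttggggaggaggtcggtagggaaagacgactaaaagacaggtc
Pln: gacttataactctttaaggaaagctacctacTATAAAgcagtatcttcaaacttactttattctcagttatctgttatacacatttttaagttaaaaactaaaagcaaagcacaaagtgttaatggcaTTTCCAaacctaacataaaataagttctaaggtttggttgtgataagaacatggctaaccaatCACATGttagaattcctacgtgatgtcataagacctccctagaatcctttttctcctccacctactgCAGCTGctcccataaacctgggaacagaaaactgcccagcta
The Ryr2 window held 2 E-boxes, that of Cacna1c 3 E-boxes and 1 NFAT core, that of Pln 2 E-boxes, 1 NFAT core and a TATA box, and that of S100a1 none of these motifs. RefSeq windows were matched for 23 of the 30 genes (28 windows). On either strand, E-boxes were found in 71.4% of them against 72.3% of all 32851 windows, the NFAT core in 21.4% against 21.4%, and the M-CAT element (CATTCC) in 14.3% against 14.7%. The TATA box was in 7.14% against 13.6%, the MEF2 motif in 3.57% (Casq2) against 3.19%, and the GC box (GGGCGG) in 57.1% against 35.7%. E-boxes may overlap other motifs, and each was counted on its own.

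Transport of calcium or sodium across the sarcolemma was covered by 6 genes, 3 below 0 and 3 above 0, and none had an unadjusted p under 0.10. Slc8a1, the sodium-calcium exchanger, stood at 141, 207, 259, 462 and 176 CPM for NLC-MI and 278, 184, 189, 225 and 211 CPM for TgGRK5-MI. NLC-MI replicate 4 was the highest, and without it the log2 fold change went from -0.20 to 0.15. The plasma membrane calcium pumps Atp2b1 (104 ± 12.2 and 97.5 ± 18.1 CPM) and Atp2b4 (30.7 ± 7.54 and 30.9 ± 8.04 CPM) had log2 fold changes of -0.091 and 0.0084. Atp1b1, the beta subunit of the sodium pump, was at 447 ± 101 and 353 ± 58.8 CPM, a log2 fold change of -0.34 (95% interval -0.76 to 0.082, unadjusted p 0.104). Phospholemman (Fxyd1), which restrains the sodium pump, varied more among libraries than between groups, at 216 to 789 CPM for NLC-MI and 262 to 845 CPM for TgGRK5-MI. Scn4b, a beta subunit of the sodium channel, stood at 13.3, 14.2, 15.2, 9.29 and 47.8 CPM for NLC-MI and 26.0, 14.5, 35.6, 10.7 and 20.3 CPM for TgGRK5-MI, with the highest value in NLC-MI replicate 5. Its log2 fold change was 0.10 with all libraries and 0.72 without that one.

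Calmodulin, the calcium sensor that acts on nearly all of these channels, is made from several genes. Calm3 varied little among libraries, at 208 to 249.7 CPM for NLC-MI and 214 to 244 CPM for TgGRK5-MI, a log2 fold change of 0.012 (95% interval -0.25 to 0.27). Calm2 stood at 198, 146, 249, 148 and 139.9 CPM for NLC-MI and 166, 191, 203, 320.2 and 206 CPM for TgGRK5-MI, where replicate 4 was the highest library. Its log2 fold change was 0.30 (unadjusted p 0.194), and 0.12 without that library.

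Release through IP3 receptors, store-operated entry and mitochondrial uptake were covered by 5 genes, and none had an unadjusted p under 0.10. Itpr1 was at 52.6 ± 10.8 CPM for NLC-MI and 43.3 ± 14.0 CPM for TgGRK5-MI, a log2 fold change of -0.28. Itpr2, the IP3 receptor known best from cardiomyocytes, was at 32.3 ± 3.98 and 27.6 ± 5.05 CPM, with a log2 fold change of -0.23 (unadjusted p 0.176). The store sensor Stim1 (21.4 ± 4.45 and 20.7 ± 4.44 CPM) and its channel Orai1 (20.1 ± 0.781 and 21.0 ± 3.01 CPM) had log2 fold changes of -0.054 and 0.059. Mcu, the pore of the mitochondrial calcium uniporter, was at 25.2 ± 2.29 and 23.6 ± 3.82 CPM, a log2 fold change of -0.093 with a 95% interval of -0.41 to 0.23. In these sentences the first value is NLC-MI, and SDs are over 5 libraries.

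Ratios of partner genes within a library were formed from levels per length and were not tested. Pln to Atp2a2, the balance of brake and pump, was 1.06 ± 0.352 in NLC-MI and 1.35 ± 0.415 in TgGRK5-MI (SD, n = 5 each). It was 1.67 in NLC-MI replicate 3, 1.64 in TgGRK5-MI replicate 3 and 1.95 in TgGRK5-MI replicate 4, the 3 libraries with the fewest counts, and between 0.752 and 1.11 in the other 7. Fkbp1b to Ryr2 was 0.0301 ± 0.0329 and 0.0844 ± 0.0450, and Casq1 to Casq2 was 0.0154 ± 0.00215 and 0.0106 ± 0.00353. Jph1 to Jph2 was 0.108 in NLC-MI replicate 3 and 0.0262 to 0.0315 in the other NLC-MI libraries. All 6 ratios examined overlapped between the groups.

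Marker levels differed among libraries of the same group. The 3 libraries with the most fibroblast marker RNA were TgGRK5-MI replicate 2 (24766 CPM), NLC-MI replicate 2 (24098 CPM) and NLC-MI replicate 1 (23571 CPM), and those with the least were NLC-MI replicate 5 (4031 CPM) and TgGRK5-MI replicate 3 (4198 CPM), whose cardiomyocyte markers were the highest (146898 and 125112 CPM). TgGRK5-MI replicate 2 held the lowest value of the 10 libraries for 8 of the 30 genes (8.47% of all genes had their lowest value there), Ryr2 and Cacna1c among them. NLC-MI replicate 5 held the highest value for 7 of the 30, as for 16.8% of all genes. The summed level of the 30 was 13126 CPM in TgGRK5-MI replicate 2 and 35174 CPM in NLC-MI replicate 5. Pln, Casq2, Trdn, Cacnb2 and S100a1, among others, were below their mean over the libraries in all 3 libraries with the most fibroblast marker RNA. Bin1, Stim1, Itpr1 and Itpr2 were above theirs. With the fibroblast marker level as a covariate, which was chosen after seeing the data, Ryr2 had a log2 fold change of -0.85 (unadjusted p 0.00273, adjusted p 0.367) and Cacna1c one of -0.71 (unadjusted p 0.00372, adjusted p 0.405). With the cardiomyocyte marker level in its place, also chosen after seeing the data, they were -0.86 (adjusted p 0.282) and -0.69 (adjusted p 0.277). Over their alternatives the adjusted p of Ryr2 ranged from 0.196 (DESeq2) to 1.00 and that of Cacna1c from 0.277 to 1.00. S100a1 had a log2 fold change of 0.78 with the fibroblast covariate (unadjusted p 0.00490, adjusted p 0.469). With the cardiomyocyte covariate its value was 0.80 (unadjusted p 0.0126, adjusted p 0.553).

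**Figure D4:**
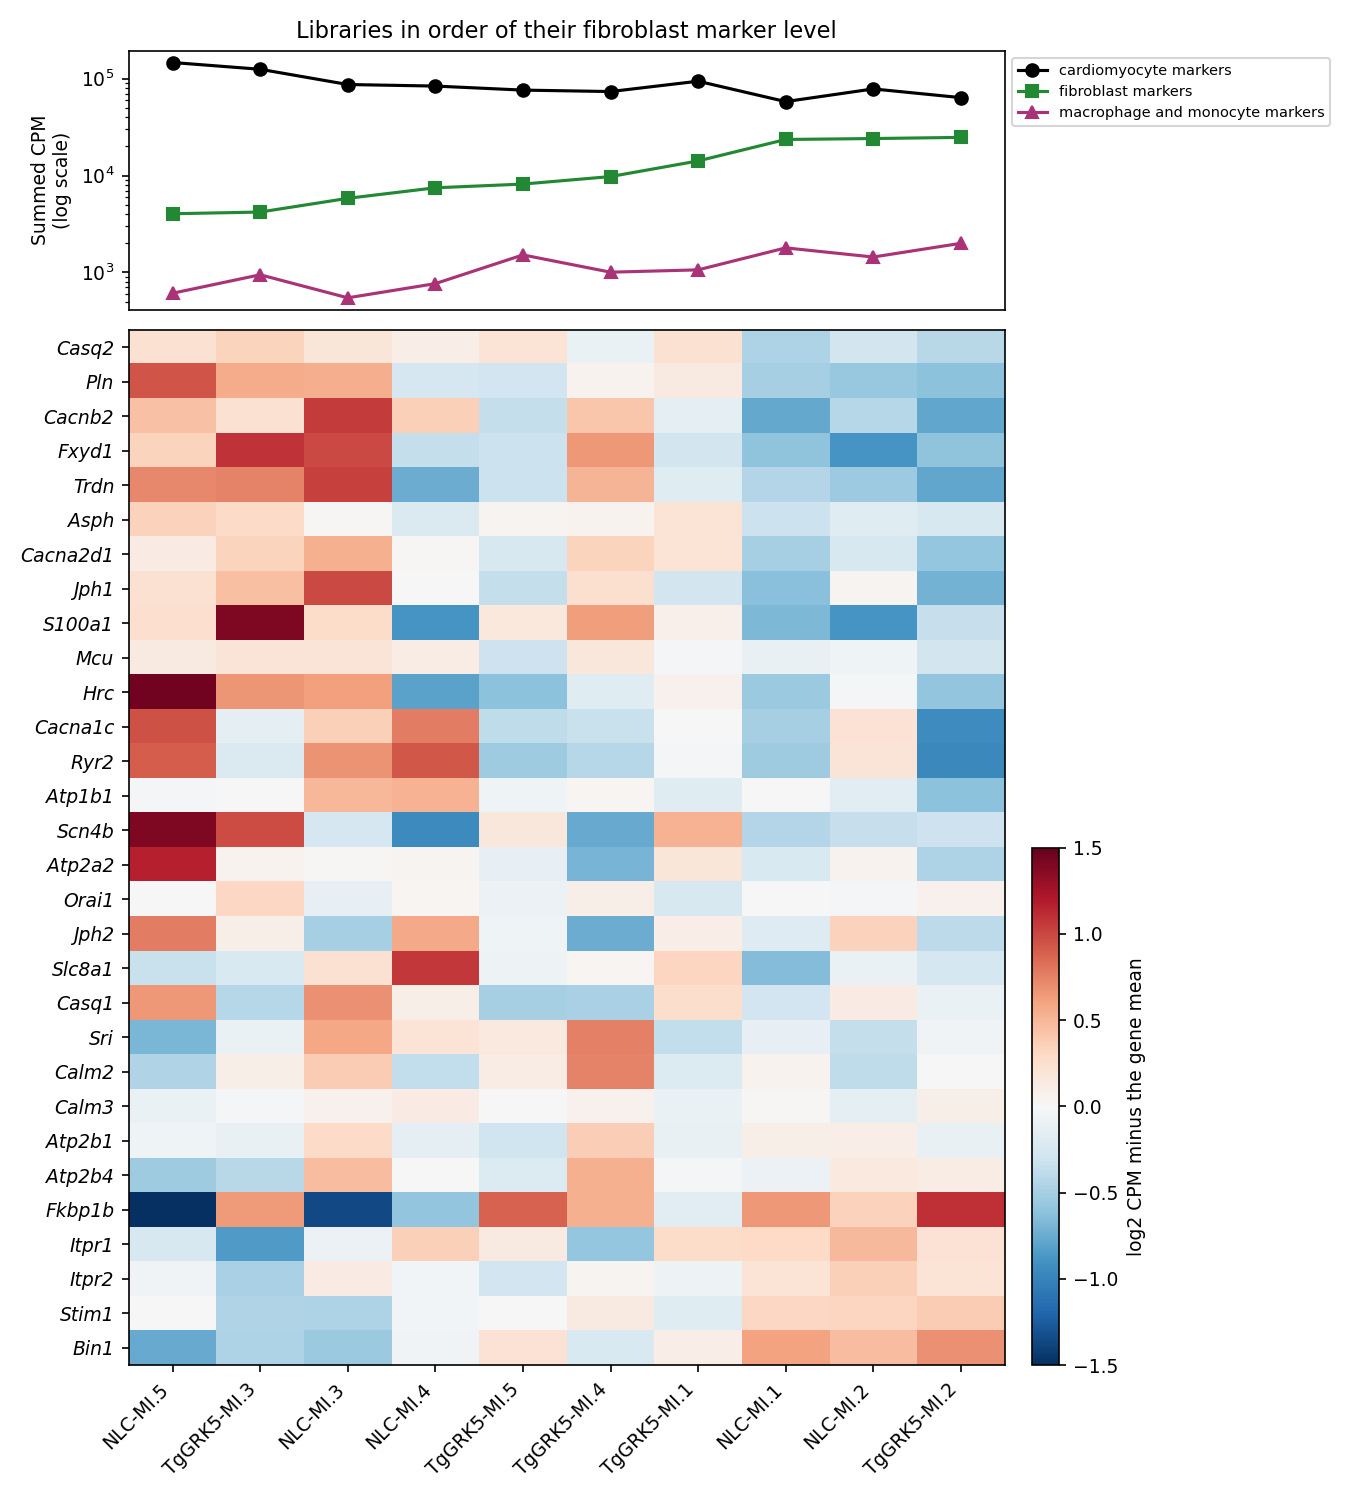
Libraries are ordered by fibroblast marker level from left (NLC-MI replicate 5, 4031 CPM) to right (TgGRK5-MI replicate 2, 24766 CPM). The upper panel gives the summed CPM of 3 marker lists on a log axis. The lower panel gives the log2 CPM of each of the 30 genes minus its mean over the libraries, from blue (low) to red (high). Pln, Casq2, Trdn, Cacnb2 and S100a1, among others, are red in the 3 leftmost and blue in the 3 rightmost libraries. Bin1 is blue and then red.

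Fold changes of the 30 genes went with the length of their exons. The longest, Ryr2 (28790 bases) and Cacna1c (21191 bases), had the lowest log2 fold changes, and the shortest, S100a1 (694 bases) and Fkbp1b (1021 bases), had the highest. Across the 30 genes the log2 fold change and the log2 exon length had a Pearson r of -0.59 and a Spearman rho of -0.45, a description over genes of the same libraries, which are not independent. Over 15204 genes tested with a known length, r was -0.11 and rho -0.21, and over 46 other calcium-handling genes r was -0.08 and rho -0.20. When all genes were put in 8 classes of length, the median log2 fold change was 0.10 in the shortest class and -0.08 in the longest, which held 12 of the 30 genes, 9 of them below 0. With an offset for exon length in each library, chosen after seeing the data, Ryr2 had a log2 fold change of -0.76 (unadjusted p 0.0139), Cacna1c -0.65 (0.0227) and S100a1 0.67 (0.0635).

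**Figure D5:**
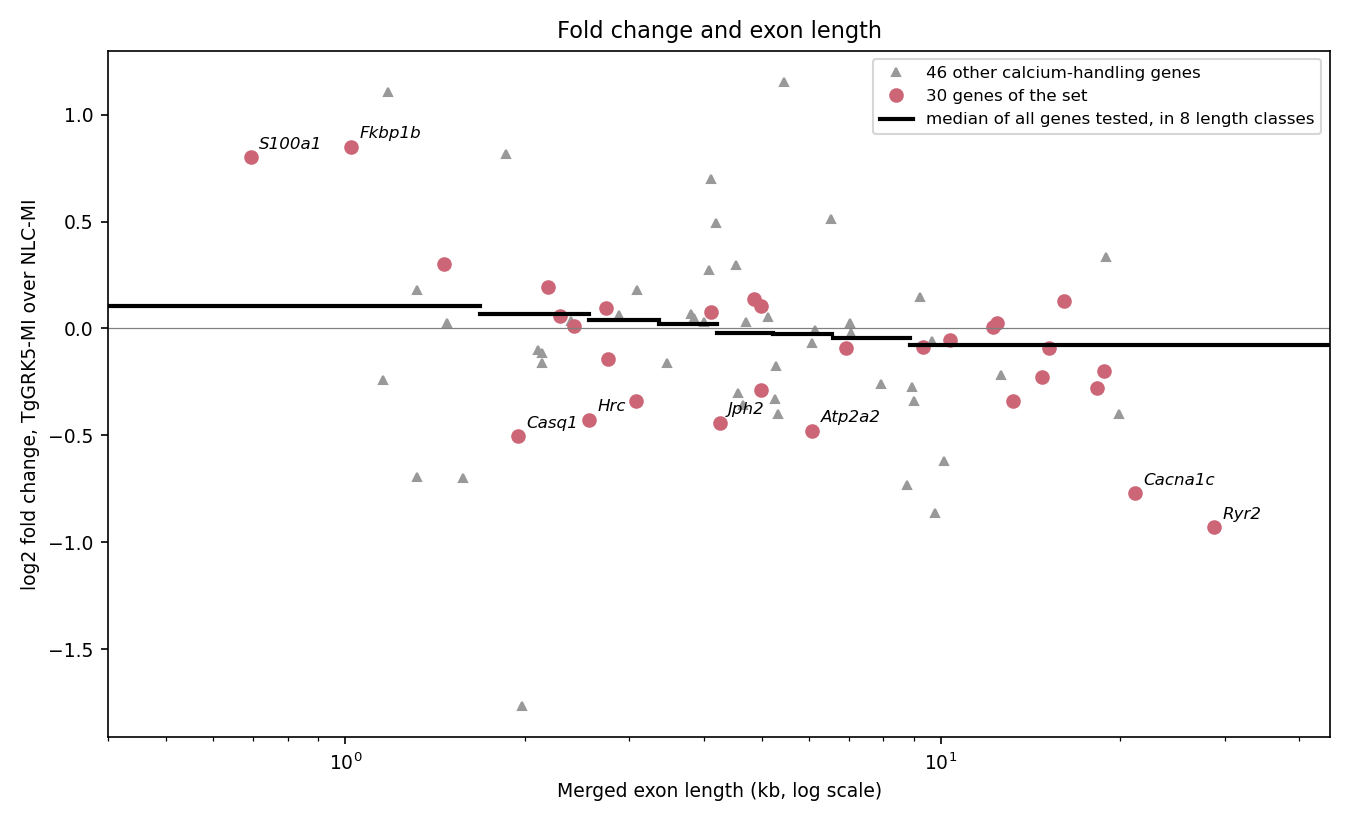
The log2 fold change, TgGRK5-MI over NLC-MI, is plotted against merged exon length in kb on a log axis for the 30 genes (red) and 46 other calcium-handling genes (grey), and the black lines are the medians of all genes tested in 8 length classes, from 0.10 to -0.08. Ryr2 and Cacna1c lie at the lower right and S100a1 and Fkbp1b at the upper left, farther from 0 than the medians of their classes.

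A second hand-made list held 53 other genes of calcium and sodium handling, of which 46 passed the filter on low counts. None of the 46 passed an adjusted p of 0.10, and 5 were lower and 3 higher at an unadjusted p under 0.05 (against 2.08% and 1.77% of all genes). The lower genes described here encode channels of the cell membrane or regulators of such channels. Cacna1h, a T-type calcium channel, stood at 3.92, 5.67, 4.45, 4.65 and 6.68 CPM for NLC-MI and 3.58, 2.36, 2.87, 3.02 and 2.15 CPM for TgGRK5-MI, and all NLC-MI libraries lay above all TgGRK5-MI libraries, as for 0.420% of all genes. Its log2 fold change was -0.86 (SE 0.22, adjusted p 0.548), and the two-sided exact permutation test gave p = 0.00794, the smallest p possible here. DESeq2 gave Cacna1h an adjusted p of 0.0852, while its alternatives ranged from 0.0852 to 1.00. Cacna1g, the other T-type channel of the heart, was at 13.3 ± 2.93 and 8.61 ± 1.50 CPM, a log2 fold change of -0.62 (unadjusted p 0.00786).

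Rrad, which encodes a small GTP-binding protein that restrains L-type channels, was at 368 ± 92.7 and 227 ± 37.7 CPM, a log2 fold change of -0.70 (unadjusted p 0.00418, exact permutation p 0.0159). Cacng6, a channel gamma subunit, was at 2.44 ± 1.78 and 0.684 ± 0.194 CPM with as few as 4 counts in a library, a log2 fold change of -1.77 (unadjusted p 0.00328, DESeq2 adjusted p 0.0992). Among the higher genes, Scn3b (0.740 ± 0.311 and 1.74 ± 0.943 CPM for NLC-MI and TgGRK5-MI) and Fxyd6 (46.2 ± 17.2 and 75.1 ± 13.7 CPM) had log2 fold changes of 1.15 and 0.70, with unadjusted p of 0.0145 and 0.0148.

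Paralogs of the 30 genes had an unadjusted p of 0.286 or higher. Fkbp1a, which encodes FKBP12, was at 271 ± 61.8 and 281 ± 60.9 CPM, a log2 fold change of 0.051. Ryr3 was at 1.93 ± 0.662 and 2.42 ± 0.754 CPM (0.33), Itpr3 at 14.1 ± 4.75 and 11.1 ± 4.97 CPM (-0.34), and Atp2a3 at 9.04 ± 2.94 and 7.94 ± 1.11 CPM (-0.18). Stim2, Orai2 and Orai3 had log2 fold changes of 0.053, -0.069 and -0.11, and the sodium pump subunits Atp1b2 and Atp1b3 of 0.28 and 0.037. Micropeptides that restrain the pump next to phospholamban were sparse, with Sln (sarcolipin) at 7.32 ± 4.29 and 4.46 ± 1.97 CPM and Mrln (myoregulin) at 0.493 ± 0.442 and 1.00 ± 0.372 CPM. Mrln, with as few as 3 counts in a library, was chosen for mention after limma-voom gave it an adjusted p of 0.0952, where edgeR gave 1.000.

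Some of the counts may include reads of other genes. The exons of Pln share 1644 bases with Gm47644 and 141 bases with Cep85l. Of all 50-base stretches of Pln transcripts, 56.2% also occur in another gene's transcripts, as written or as the reverse complement. Of these 1649 stretches, 1554 are shared with Gm47644. Both partners lie on the opposite strand, and Gm47644 had 272 counts in all libraries against 697273 for Pln. Asph shares 2302 bases with Clvs1 and Atp1b1 575 bases with Nme7, both on the opposite strand. Of the 50-base stretches of Calm2, 9.72% occur in other genes' transcripts, as written or as the reverse complement. The strand setting of the counting is not given in the sources used here, so that reads of overlapping genes on opposite strands cannot be told apart.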

How the data were processed

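Counts per gene were deposited as whole numbers by the authors for 10 libraries of cardiomyocyte RNA, without normalization. The submitters' processing notes name Bowtie2, RSEM 1.2.31, DESeq2 and mm10, with no role or order, and the strand setting and the annotation version are not given in the sources used here. RSEM estimates counts of reads that several genes share, so whole numbers may be rounded estimates. Libraries were made from total RNA with a TruSeq kit, and groups were taken from the labels. The study gives 5 mice per group, so each library is taken to be 1 mouse. No column of per-sample values was left unused.

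The members and all lists were chosen with earlier results of these data known, and the text names all 30 members, Grk5, and genes of the second list with an unadjusted p under 0.05 or with a tested paralog among the members, and Mrln after its value was seen. Some genes that this rule would name are not reported here. Symbols, positions and merged exon lengths came from GENCODE M21 on GRCm38 (51596 of 51789 identifiers matched). In R 4.3.3, edgeR 4.0.16 was used with TMM factors, filterByExpr by group (15232 genes kept) and the quasi-likelihood F test (legacy=FALSE), with Benjamini-Hochberg adjustment over all genes tested and a threshold of 0.10, the limit the study used. CPM values use the TMM factors. Differences of mean log2 CPM (prior count 2) were tested for single genes with the two-sided exact permutation test, which ran through the 252 ways to split the libraries 5 and 5. The fit was also run on counts simulated from its own model with the dispersions of these data. Such a run cannot show how the fit does where real counts depart from that model, and no result here rests on it. Intervals are 95% confidence intervals of the log2 fold change between groups, from its SE in the edgeR fit.

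Alternatives were RLE factors, library size alone, DESeq2 1.42.0, limma-voom (limma 3.58.1) with sample weights, other filters, the replicate number as a block, a covariate of Xist minus Y-linked log2 CPM, and each library left out. Those without the 3 libraries with the fewest counts, with marker levels as covariates and with an offset for exon length were chosen after seeing the data. Replicate numbers come from the labels, which do not say that they mark shared litters or days. Strit1 of the second list was not matched. Figures were drawn with matplotlib 3.10.9.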

Additional observations from a re-analysis of the deposited data

Results flagged for a closer look

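In 8 of 108 groups of 5 libraries examined (a gene, a ratio or a marker sum in 1 group), a single library stood apart from the other 4 by Dixon's 95% criterion, where chance alone gives about 1 in 20. NLC-MI replicate 5 stood apart for Atp2a2, at 17270.0 CPM against 6609 to 8008 CPM among the remaining libraries of NLC-MI, and for Scn4b, at 47.8 CPM against 9.29 to 15.2 CPM. TgGRK5-MI replicate 4 stood apart for Calm2, at 320.2 CPM against 166 to 206 CPM, for Atp2b1, at 129 CPM against 81.3 to 92.6 CPM, and for the Calm2 to Calm3 ratio per length, at 2.21 against 1.28 to 1.50. NLC-MI replicate 3, the library with the fewest counts, stood apart for the Pln to Atp2a2 ratio (1.67 against 0.752 to 0.990), the Jph1 to Jph2 ratio (0.108 against 0.0262 to 0.0315) and the summed erythrocyte markers (412 CPM against 9.49 to 30.5 CPM).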

How the results depend on the processing

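None of the 30 genes was called at an adjusted p of 0.10 in any of the 22 alternatives, and of 659 values 602 kept the direction of the fit with all libraries, Ryr2, Cacna1c and S100a1 always among them. The count of all genes called (12) was 69 with DESeq2, 50 with limma-voom, 4 with the Xist and Y-linked covariate, 6 without the 3 libraries with the fewest counts, 28 with the fibroblast and 30 with the cardiomyocyte marker covariate, 7 with the length offset, 18 with library size alone and 3 to 10 with 1 library left out. It was 5 or fewer without any 1 of NLC-MI replicates 1, 2 and 4 and TgGRK5-MI replicates 1, 3, 4 and 5, and 9 or 10 without any 1 of the other libraries. Members higher at an unadjusted p under 0.05 (1) were 0 with RLE factors, the Xist and Y-linked covariate, the length offset and without the 3 libraries with the fewest counts, 2 with limma-voom and with either marker covariate, and 0 to 2 with 1 library left out. S100a1 was no longer under 0.05 without NLC-MI replicate 1, 2 or 4 or TgGRK5-MI replicate 3 or 4 (unadjusted p of 0.0792 to 0.185). Of the other calcium genes, DESeq2 called 2 (Cacna1h and Cacng6) and limma-voom 1 (Mrln). Those higher at an unadjusted p under 0.05 (3) were 6 with limma-voom and 5 with the cardiomyocyte covariate. They were 3 to 5 with 1 library left out. Those lower (5) were 3 without the 3 libraries with the fewest counts. The share of all genes under 0.05 is given here for the main fit alone. Counts under 0.05 in the alternatives thus have no background of their own, and a change of list and of method cannot be told apart.

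Whether the replicate numbers pair the libraries is not known from the labels. Same-numbered libraries had correlations of 0.0717, 0.662, 0.381, -0.341 and 0.0848, and only those numbered 2 were nearest to each other. The mean was 0.172 for same-numbered libraries and -0.0274 for the others. These correlations cannot settle pairing, because libraries also differed in marker levels and total counts. With the replicate block 8 genes were called and 0 of the 30, and the log2 fold changes of Ryr2 and Cacna1c were -0.88 and -0.73. Of the 30 genes, 1 was higher and 2 were lower at an unadjusted p under 0.05 with the block, as without it. The share of all genes under that limit with the block is not given here. The Xist minus Y-linked difference was -10.5 to -7.76 on the log2 scale in all 10 libraries. Y-linked RNA was thus far above Xist RNA in each, the pattern of male mice, so the covariate did not separate males from females.

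Direction turned in 15 of the 30 genes, all with a log2 fold change in the fit of all libraries between -0.43 and 0.19. With limma-voom the values were 0.22 for Trdn, 0.26 for Pln, 0.0097 for Cacnb2, -0.14 for Bin1, 0.031 for Slc8a1, -0.090 for Atp2b4 and -0.052 for Orai1. With the Xist and Y-linked covariate they were 0.037 for Trdn, -0.045 for Bin1, 0.12 for Slc8a1 and -0.24 for Scn4b. Without the 3 libraries with the fewest counts they were -0.046 for Cacna2d1, -0.10 for Fxyd1, -0.064 for Scn4b and -0.091 for Orai1. Atp2b4 was -0.0060 with RLE factors, -0.0053 with DESeq2, and -0.0019 and -0.019 with the fibroblast and cardiomyocyte covariates. Calm3 was -0.0019 with RLE factors, -0.0020 with DESeq2 and -0.058 with the length offset, and Orai1 was -0.017 with that offset. The cause was not tested. With 1 library left out the ranges were -0.015 to 0.19 for Casq2, -0.32 to 0.23 for Trdn, -0.69 to 0.031 for Hrc, -0.074 to 0.33 for Sri, -0.32 to 0.14 for Pln, -0.10 to 0.18 for Cacna2d1, -0.11 to 0.25 for Bin1, -0.36 to 0.15 for Slc8a1, -0.14 to 0.14 for Atp2b4, -0.13 to 0.56 for Fxyd1, -0.16 to 0.72 for Scn4b, -0.020 to 0.047 for Calm3, -0.17 to 0.031 for Stim1 and -0.027 to 0.11 for Orai1. Fkbp1b had no value under the filter of 10 counts in every library.

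Groups of 5 with this spread leave differences smaller than the 95% intervals unresolved. Counts are of RNA in isolated cells 4 days post-MI and say nothing of protein, phosphorylation or calcium transients.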
